A study of Mus musculus with 52 samples.

Results

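Tumours that stood high and tumours that stood low in ribosomal protein transcripts within their own treatment group were compared across all genes. Each of the 52 tumour libraries of the series was scored by the mean log2(TPM + 1) of Rps7, Rps18 and Rps19, which encode proteins of the small subunit of the cytosolic ribosome (TPM is a level per transcript length, scaled to a fixed total in each library). Within each of the 6 groups of n libraries, n divided by 3 and rounded down gave the number of highest scores, called ribosomal-high, and of lowest scores, called ribosomal-low. This gave 15 ribosomal-high and 15 ribosomal-low libraries, and left 22 in the middle. The tumours were thus chosen by measured TPM of the scored genes, so the levels of ribosomal protein genes between the classes are a description and carry no test.

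The tumours grew from 100000 cells of the 4T1 line, a mammary carcinoma line of Balb/C mice, placed in the 4th left mammary fat pad of Balb/C hosts. Aged hosts were over 12 months old and young hosts 8 to 10 weeks (up to 12 weeks in the growth protocol). Each mouse was given an antibody on 3 occasions, days 7, 10 and 13, at 200 µg a time, and this was either anti-CTLA4 (clone 9D9), anti-PD-L1 (clone 10F.9G2) or the isotype control (clone LTF-2). The series held 8 aged anti-CTLA4, 8 aged anti-PD-L1, 7 aged isotype, 12 young anti-CTLA4, 10 young anti-PD-L1 and 7 young isotype libraries, which gave 2, 2, 2, 4, 3 and 2 libraries to each class. All tumours came from 1 cell line and were taken as whole tissue at no more than about 150 mm3. The labels call the libraries biological replicates and do not name the animals, so the p-values speak of the spread from library to library, which may be technical in part.

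The cytosolic ribosome is a large and a small subunit, each a scaffold of ribosomal RNA with a set of small proteins. The mRNAs of these proteins are short, abundant and poly(A)-tailed, and begin with a terminal oligopyrimidine (TOP) tract through which mTORC1 and the binding protein Larp1 control their translation and stability together. In growing tumour tissue they take up a large part of the mRNA, so their share of a library bears on the share left for every other gene.

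Total estimated counts ran from 9549847 to 53778370 a library, with a median of 20665733.5. Of the 30 libraries compared, 6 ribosomal-high and 4 ribosomal-low ones were of sequencing batch 1, 7 and 5 of batch 2, and 2 and 6 of batch 3. The uneven share of batch 3 came from young anti-CTLA4 tumours, where all 4 ribosomal-low libraries were of batch 3 and all 4 ribosomal-high ones of batches 1 and 2, so that batch and class cannot be told apart there. In the other 5 groups both classes were of a single batch, and results in those 11 against 11 libraries are called batch-matched. Of the ribosomal-high libraries 3 stood apart by TMM normalization factors under 0.8, namely 0.618 in young isotype replicate 6, 0.714 in young anti-CTLA4 replicate 8 and 0.724 in aged isotype replicate 3. TMM is the trimmed mean of M values, and a low factor marks a library in which a few genes take more of the counts.

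The scores averaged 10.77 ± 0.26 in ribosomal-high tumours and 10.00 ± 0.26 in ribosomal-low tumours (SD, n = 15 each), and 10.40 ± 0.26 in the 22 middle libraries. The groups differed in level, so the classes overlapped when pooled. The lowest ribosomal-high score was 10.43, in an aged anti-PD-L1 tumour, and the highest ribosomal-low score was 10.47, in an aged isotype tumour. Inside a group the step at the upper threshold was smallest in young anti-CTLA4 tumours, with 10.73 for the lowest ribosomal-high library and 10.71 for the highest middle one. At the lower threshold of that group the highest ribosomal-low library had 10.0942 and the lowest middle one 10.0943. The difference between class means was 0.46 in aged isotype tumours and 1.01 in young isotype tumours, the ends of the range over groups.

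Rps18 had 1207, 1692 and 2447 TPM (lowest, median and highest) in ribosomal-high tumours, against 628, 875 and 1324 TPM in ribosomal-low tumours. Rps19, which is mutated in a human anaemia of ribosome shortage, had 3282, 4265 and 6465 TPM in ribosomal-high tumours, against 2048, 2597 and 3450 TPM in ribosomal-low tumours. Rps7 had 581, 733 and 1053 TPM in ribosomal-high tumours, against 336, 436 and 635 TPM in ribosomal-low tumours. For each of the 3 the class ranges overlapped in part, since the groups differ in level. The other ribosomal protein genes went with them. All 82 genes of the family, the 3 scored ones included, had a positive log2 fold change of ribosomal-high minus ribosomal-low in edgeR on the counts. It ran from 0.30 to 1.89 with a median of 1.27, and 81 of 82 were positive in each of the 6 groups.

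**Figure D1:**
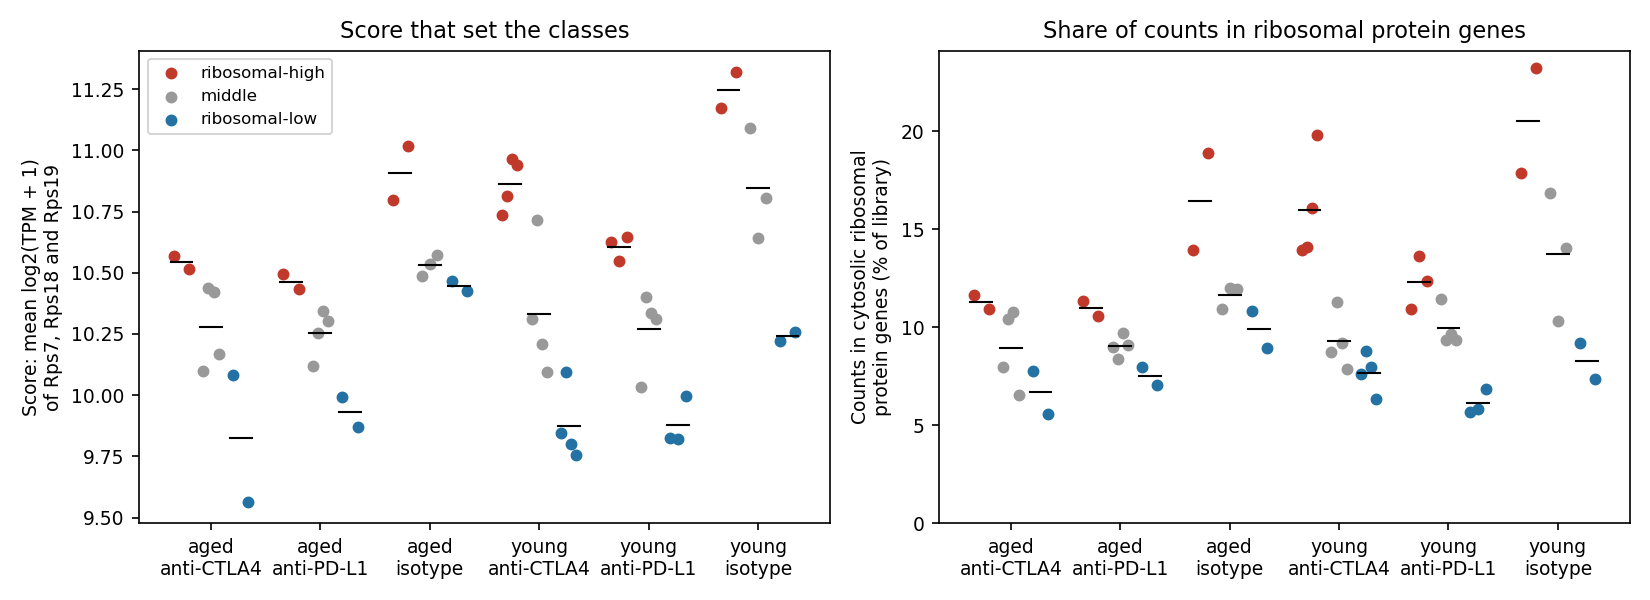
Score of each library, as mean log2(TPM + 1) of Rps7, Rps18 and Rps19 (left), and percent of its counts in 82 cytosolic ribosomal protein genes (right), by group and class, with black bars at class means. Within each group the ribosomal-high points sit above the ribosomal-low ones in both panels, and the share reaches 23.2% in 1 young isotype tumour.

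Together the 82 genes took 14.6% ± 3.80 of the counts in ribosomal-high libraries and 7.58% ± 1.46 in ribosomal-low libraries (SD, n = 15 each). In TPM, where each count is divided by gene length, their share was 23.8% ± 3.81 in ribosomal-high and 15.5% ± 1.88 in ribosomal-low libraries. The members differed among themselves. Rpl41, the gene of the smallest ribosomal protein, had 9488, 12720 and 24546 TPM in ribosomal-high tumours, against 4043, 5923 and 8319 TPM in ribosomal-low tumours (log2 fold change 1.89 ± 0.20, SE). Rpl34 followed with a log2 fold change of 1.75 ± 0.16. For both, every ribosomal-high library was above every ribosomal-low one, which held for 12 of the 82 genes and, in either direction, for 0.127% of the other genes tested. At the other end, Rpl4 had a log2 fold change of 0.30 ± 0.069 on the counts. It had 719, 1192 and 1456 TPM in ribosomal-high tumours, against 1289, 1546 and 1660 TPM in ribosomal-low tumours. Rps2 was at 0.43 ± 0.096 on the counts, and at 256, 356 and 497 TPM in ribosomal-high tumours against 323, 405 and 534 TPM in ribosomal-low tumours. Counts and TPM differ here in how each library is scaled, since gene lengths are common to all libraries. On log2(TPM + 1) Rpl4 and Rps2 were at -0.38 and -0.25, above the median of -0.52 over all genes tested.

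Small-subunit genes had a median log2 fold change of 1.37 over 33 genes and large-subunit genes 1.15 over 49. Shorter members differed more, with a Spearman correlation of -0.41 between log2 fold change and log2 effective length across the 82 genes, which share libraries and are not independent. Effective length here is the length that the authors' counts and TPM share for a gene, in kb. The 115 annotated copies of ribosomal protein genes that were kept, most of them processed pseudogenes, had a median of 1.18, and reads of near-identical copies cannot be assigned with certainty. On a log2(TPM + 1) scale 74 of the 82 genes remained positive with a median of 0.56, while the median over all genes tested was -0.52 on that scale.

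Genes of like length are given for description only, since the family chose the classes. Between the 10th and 90th percentiles of ribosomal protein gene length (0.339 to 1.21 kb) lay 2725 other tested genes, with a median log2 fold change of 0.55 and a 10th to 90th percentile range of -0.11 to 1.15. A fit with an offset for each library's own smooth trend on effective length left the 82 genes at a median of 0.58, with 8 of them below 0 (Rps2, Rps26, Rps28, Rpl23, Rpl23a, Rpl28, Rpl29 and Rpl30).

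**Figure D2:**
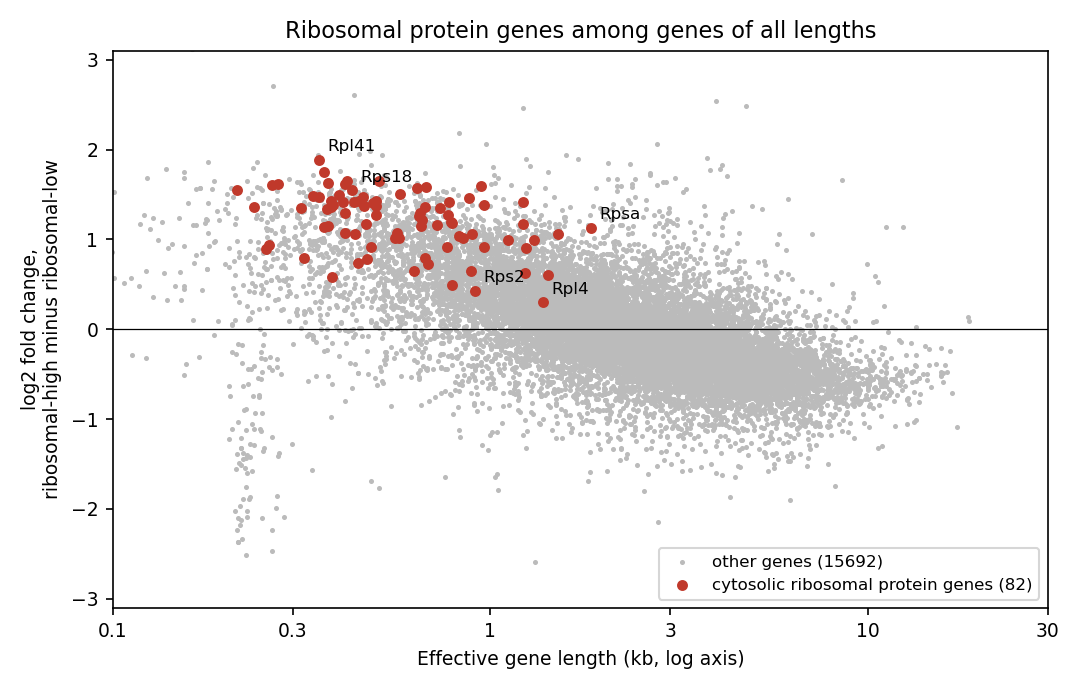
Log2 fold change of ribosomal-high minus ribosomal-low tumours (vertical) against effective gene length in kb (log axis) for the 82 cytosolic ribosomal protein genes in red and the other tested genes in grey. The 93 genes outside the axes are not drawn, and the grey cloud slopes from about 0.75 for the shortest genes to about -0.52 for the longest. All red points lie above 0, from 0.30 to 1.89.

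Among the 15692 other genes tested, 3712 were higher and 4388 lower in ribosomal-high tumours by edgeR's quasi-likelihood test at a Benjamini-Hochberg adjusted p under 0.05, which is 51.6% of all (23.7% higher and 28% lower). These p-values are of an association with the classes, which no one assigned. In the batch-matched libraries the counts were 3289 higher and 3483 lower (43.2% of all, 21% and 22.2%), and with the 3 low-TMM libraries left out they were 3308 and 3775. On log2(TPM + 1) values the split moved to 797 higher and 11476 lower by limma. The median of all genes lay at -0.52 there and at -0.083 on the counts, so list medians on the TPM scale are given below relative to that median. The 1 added to TPM shrinks differences of genes with low TPM, so values relative to that median are approximate. With the length offset 2792 genes were higher and 2370 lower (32.9% of all, 17.8% and 15.1%), of which 3683 were called in the same direction and 135 in the opposite one without it.

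The counts moved most in the following fits. With each library's length trend as a covariate, a measure described below that went with the classes, 91 genes were higher and 30 lower, and 80 of 112 genes followed across the alternatives kept their direction but did not pass, while 9 turned. Inside batch 1 alone (8 libraries) no gene was called by edgeR, although 4559 had an unadjusted p under 0.05, and inside batch 3 alone (4 libraries) 3 were lower, with 2807 under that p. Inside batch 2 alone (10 libraries) 1595 were higher and 878 lower.

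Gene length ordered the differences. In the shortest decile of genes (up to 0.760 kb of effective length) the median log2 fold change was 0.75, and 63.1% were higher and 1.15% lower. The median crossed zero between decile 4 (0.058, 1.58 to 1.95 kb) and decile 5 (-0.036). In the longest decile (from 5.32 kb) it was -0.52, and 1.21% were higher and 68.8% lower. Across the 15692 genes the Spearman correlation of log2 fold change with log2 effective length was -0.64 and Pearson's r was -0.57, given as a description because genes share libraries. The correlation with GC content was -0.019 (Spearman). The correlation with effective length was -0.71 (Spearman) over the 10021 genes that averaged 10 CPM or more, and -0.36 when the median annotated transcript length replaced the effective length.

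The order by length appeared in each group taken alone, with Spearman correlations across genes of -0.50 in aged anti-CTLA4, -0.43 in aged anti-PD-L1, -0.46 in aged isotype, -0.59 in young anti-CTLA4, -0.60 in young anti-PD-L1 and -0.48 in young isotype tumours. The shortest decile had a median class difference between 0.48 (aged anti-PD-L1) and 1.03 (young isotype), and the longest decile between -0.80 (young anti-CTLA4) and -0.18 (aged anti-PD-L1). Batch-matched medians ran from 0.73 in the shortest to -0.43 in the longest decile. With the offset, the 10 medians lay between -0.038 and -0.0015, by construction of that fit. Relative to the all-gene median on log2(TPM + 1), the shortest decile stood 0.56 above it and the longest 0.27 below it.

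**Figure D3:**
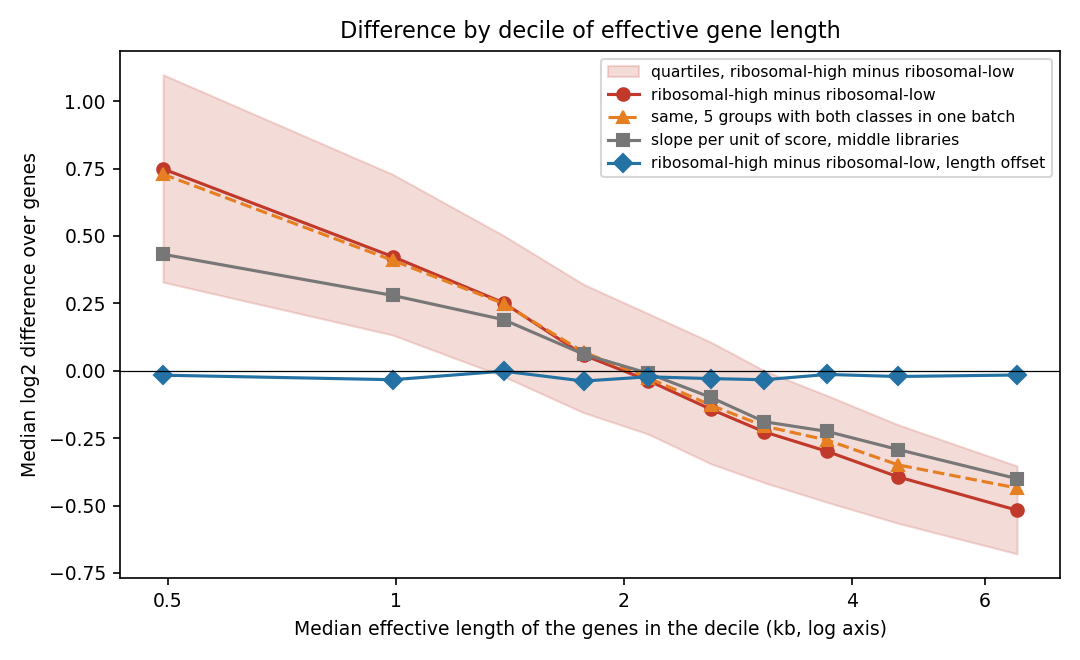
Median log2 difference over the genes of each decile of effective length (vertical) against the median length of the decile in kb (log axis), for ribosomal-high minus ribosomal-low tumours with quartiles shaded, for the 5 batch-matched groups, for the slope on the score in the middle libraries and for the fit with a length offset. The first runs from 0.75 to -0.52, the batch-matched line lies close to it, the middle libraries run from 0.43 to -0.40, and the offset line is near 0.

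Measured per library, the length trend is how a library's log2 CPM, taken as deviations from each gene's mean, changed with log2 effective length over 15526 genes, with ribosomal, respiratory chain and mitochondrially encoded genes left out. It was -0.49, -0.14 and 0.039 per doubling of length (lowest, median and highest) in ribosomal-high libraries, against -0.091, 0.12 and 0.28 in ribosomal-low libraries. The ranges overlapped, yet the class mean was lower for ribosomal-high libraries in 6 of 6 groups. The difference of means was -0.26 per doubling, with an exact two-sided permutation p of 1.1e-06 within groups, the smallest that 1814400 arrangements can give, and an adjusted p of 3.9e-06 over 7 library measures. It was -0.17 in batch 1, -0.31 in batch 2 and -0.17 in batch 3 alone, and -0.20 with the 3 low-TMM libraries left out.

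Other properties of the libraries also differed between the classes. The TMM factor and the share of the most counted genes hold the ribosomal protein genes that chose the classes, so they are described with no p-value. The number of genes at 1 TPM or more is too, since a larger ribosomal protein share of TPM leaves less for other genes. Ribosomal-high libraries had TMM factors of 0.900 ± 0.13 and ribosomal-low ones 1.10 ± 0.062 (lower in 6 of 6 groups), with differences of -0.13, -0.23 and -0.24 inside batches 1, 2 and 3. At 1 TPM or more ribosomal-high libraries had 13313 ± 752 genes, against 14489 ± 520 in ribosomal-low libraries (lower in 5 of 6 groups), with differences of -511, -1062 and -1490.5 inside the batches. The 10 most counted genes took 8.97% ± 1.37 of their counts, against 6.65% ± 0.950 in ribosomal-low libraries (higher in 6 of 6 groups), with differences of 1.66, 3.60 and 2.94 percentage points inside the batches. Their total counts were 18716000 ± 5539900, against 28012000 ± 12587000 in ribosomal-low libraries (adjusted p = 0.0065, lower in 5 of 6 groups), and inside batches 1, 2 and 3 the differences were -5880800, -2308500 and -110680. The widest gap was in young anti-CTLA4 tumours, with means of 15140000 in ribosomal-high and 41177000 in ribosomal-low libraries. Batch and class cannot be told apart in that group, which the p-value includes. Young isotype tumours went the other way, with 15798000 and 10171000. Replication-dependent histone mRNAs, which end without a poly(A) tail, took 0.0101% ± 0.00159 of counts in ribosomal-high libraries and 0.00860% ± 0.00129 in ribosomal-low ones (adjusted p = 0.016, higher in 5 of 6 groups), with differences of 0.0012, 0.00033 and 0.0016 percentage points inside the batches. The mitochondrially encoded share was 3.26% ± 1.10 in ribosomal-high and 3.31% ± 1.23 in ribosomal-low libraries, a difference of -0.042 percentage points that did not pass (adjusted p = 0.92). Inside batches 1, 2 and 3 that difference turned to 0.98, 0.84 and 0.72 percentage points. The tests were exact permutations within groups with n = 15 in each class. The adjusted p-values were taken over 7 measures, those described with no p-value among them. Inside batches 1 and 3 the arrangements are too few for any difference to pass. The part of these measures in the gene differences was not tested.

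**Figure D4:**
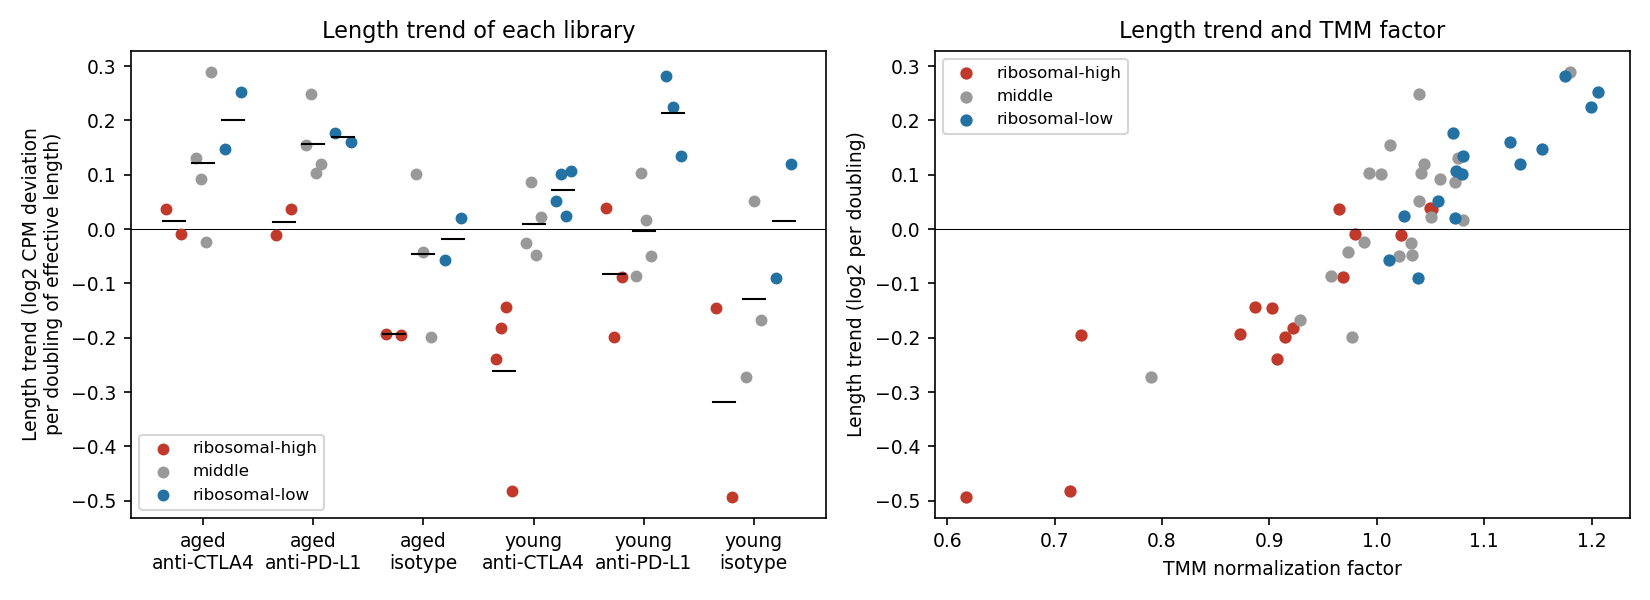
Length trend of each library, in log2 CPM deviation per doubling of effective length, by group and class with black bars at means (left), and against the TMM factor (right). In every group the ribosomal-high mean lies below the ribosomal-low mean, and the libraries with the lowest trends, near -0.49, have TMM factors of 0.618 and 0.714.

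The 10 genes higher in ribosomal-high tumours with the smallest p had effective lengths of 0.529 to 2.08 kb. C1d, a cofactor of the nuclear RNA exosome, had 83.9, 145 and 299 CPM in ribosomal-high tumours, against 37.7, 49.3 and 106 CPM in ribosomal-low tumours (lowest, median and highest, as in all such triplets below; log2 fold change 1.42 ± 0.12 (SE), adjusted p = 3.26e-08). Its median ribosomal-high library lay above every ribosomal-low one. Elof1, a transcription elongation factor, had 110.1, 151 and 358 CPM in ribosomal-high tumours, against 47.2, 64.9 and 108 CPM in ribosomal-low tumours, with no overlap (log2 fold change 1.31 ± 0.12 (SE), adjusted p = 3.26e-08). Coq2, a prenyltransferase of coenzyme Q synthesis, had 40.1, 59.9 and 120.0 CPM in ribosomal-high tumours, against 21.2, 29.9 and 38.4 CPM in ribosomal-low tumours, again with no overlap (log2 fold change 0.98 ± 0.088 (SE), adjusted p = 3.26e-08).

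Tomm5, a small subunit of the import pore of the mitochondrial outer membrane, had the largest fold change of the 10 genes named by smallest p, with 119.8, 261 and 795 CPM in ribosomal-high tumours, against 44.4, 73.1 and 135 CPM in ribosomal-low tumours (log2 fold change 1.70 ± 0.16 (SE), adjusted p = 3.26e-08). Its lowest ribosomal-high value lay just under its highest ribosomal-low value. Znhit3 (a factor in assembly of box C/D ribonucleoproteins), Mettl23 (a methyltransferase), Tmem242, Mrps33 (a protein of the mitochondrial ribosome), Pts (an enzyme of tetrahydrobiopterin synthesis) and Fdxacb1 completed the 10, with log2 fold changes between 1.21 (Pts) and 1.38 (Znhit3). All 10 were higher in 6 of 6 groups, and all 10 were above the ribosomal-low median in 15 of 15 ribosomal-high libraries. With the length offset they stayed past the threshold at log2 fold changes from 0.66 (Mettl23) to 1.21 (Fdxacb1). Fdxacb1, of 2.08 kb, was the longest and the least altered by the offset, with a log2 fold change of 1.22 ± 0.11 without it.

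The 10 lower genes with the smallest p had effective lengths of 2.72 to 6.01 kb. Lars, the cytosolic leucyl-tRNA synthetase, had 26.2, 31.3 and 38.6 CPM in ribosomal-high tumours, against 40.6, 47.8 and 61.0 CPM in ribosomal-low tumours, with no overlap (log2 fold change -0.60 ± 0.055 (SE), adjusted p = 3.26e-08). Vcp, the ATPase that extracts ubiquitinated proteins, had 149.7, 217 and 294 CPM in ribosomal-high tumours, against 263, 346 and 427 CPM in ribosomal-low tumours (log2 fold change -0.75 ± 0.069 (SE), adjusted p = 3.26e-08). Hsd17b4, a peroxisomal enzyme of fatty acid oxidation, had 22.3, 32.6 and 39.2 CPM in ribosomal-high tumours, against 42.0, 49.2 and 59.2 CPM in ribosomal-low tumours, with no overlap (log2 fold change -0.65 ± 0.064 (SE), adjusted p = 4.47e-08).

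Eif3c, a core subunit of the initiation factor eIF3, had 79.2, 124 and 164 CPM in ribosomal-high tumours, against 146, 205 and 230.1 CPM in ribosomal-low tumours (log2 fold change -0.71 ± 0.074 (SE), adjusted p = 5.52e-08). Eif4g1, the scaffold of the cap-binding complex, had 115, 176 and 220.5 CPM in ribosomal-high tumours, against 185, 285 and 377 CPM in ribosomal-low tumours (log2 fold change -0.67 ± 0.076 (SE), adjusted p = 1.17e-07). Ddx21, a nucleolar RNA helicase of ribosomal RNA synthesis, had 33.6, 61.8 and 79.0 CPM in ribosomal-high tumours, against 79.8, 96.1 and 121 CPM in ribosomal-low tumours (log2 fold change -0.72 ± 0.079 (SE), adjusted p = 8.40e-08). Each was lower in 6 of 6 groups, and the Ddx21 ranges did not overlap, a property of 20 of the 15692 genes. Lrpprc (mitochondrial mRNA stability), Pak2 (a kinase), Rangap1 (nuclear transport) and Ap1b1 (an adaptor of vesicle coats) had log2 fold changes of -0.68, -0.62, -0.54 and -0.70. With the length offset 9 of the 10 remained past the threshold, at log2 fold changes from -0.51 (Hsd17b4) to -0.26 (Eif4g1), and Pak2 was at -0.13 (adjusted p = 0.104).

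Some genes went against the order by length. Among genes in the longest quartile (over 3.71 kb), Tomm20, the import receptor of the mitochondrial outer membrane, had 398, 678 and 1900.0 CPM in ribosomal-high tumours, against 197, 309 and 639.9 CPM in ribosomal-low tumours (log2 fold change 1.34 ± 0.14 (SE), adjusted p = 7.92e-08), with an effective length of 5.24 kb and a median annotated transcript of 2680 bases. Its median ribosomal-high library lay above every ribosomal-low one. Tmem167 (Golgi trafficking), Sf3b5 (a small splicing factor subunit) and Emc7 (a subunit of the membrane protein insertion complex of the endoplasmic reticulum) were also higher, with log2 fold changes of 0.96, 0.81 and 0.61, though Emc7 was at -0.075 on log2(TPM + 1), above the all-gene median of -0.52. Their median annotated transcripts were 1541, 3841 and 5826 bases, and their effective lengths 4.51, 4.00 and 6.15 kb. With the length offset their log2 fold changes were larger, from 1.14 (Emc7) to 1.79 (Tomm20).

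In the shortest quartile (up to 1.39 kb), Hnrnpd, an AU-rich element binding protein that destabilises mRNAs, had 36.5, 74.7 and 93.7 CPM in ribosomal-high tumours, against 88.5, 113 and 136 CPM in ribosomal-low tumours (log2 fold change -0.72 ± 0.10 (SE), adjusted p = 3.74e-06). Serpinf1, a secreted anti-angiogenic serpin made by stromal cells, had 30.5, 63.2 and 87.5 CPM in ribosomal-high tumours, against 69.1, 94.8 and 248 CPM in ribosomal-low tumours (log2 fold change -0.84 ± 0.15 (SE), adjusted p = 4.96e-05). Both were below the ribosomal-low median in all 15 ribosomal-high libraries. Rnf220 (a ubiquitin ligase), Kctd17 and Mkln1 were lower by less, at log2 fold changes of -0.40, -0.47 and -0.32. Their median annotated transcripts were 1104 bases for Hnrnpd, 737.5 for Serpinf1, 1045.5 for Rnf220, 855 for Kctd17 and 1312 for Mkln1, and their effective lengths ran from 0.894 kb (Mkln1) to 1.26 kb (Rnf220).

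Of 13624 protein-coding genes 2909 were higher and 4300 lower, with a median log2 fold change of -0.13 and a median effective length of 2.57 kb. Of 345 long intergenic RNAs 134 were higher and 9 lower (median 0.35, 1.55 kb), of 305 antisense RNAs 128 and 7 (median 0.43, 1.32 kb), of 207 processed transcripts 94 and 5 (median 0.48, 1.36 kb), and of 553 processed pseudogenes outside the ribosomal copies 271 and 35 (median 0.49, 0.529 kb). No source used here says whether strand entered the estimates, and antisense RNAs and the genes they overlap cannot be told apart with certainty.

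Other mRNAs of the translation machinery divided by member. For comparison, 23.7% of all genes were higher and 28% lower. Of 24 genes known or proposed to carry TOP tracts or to act in translation, 15 were higher and 4 lower, with a median of 0.58 that was 0.12 with the length offset and 0.42 relative to the all-gene median on the TPM scale. Rack1, a scaffold protein on the small subunit, had 3096, 5212 and 12507 CPM in ribosomal-high tumours, against 1430.0, 2157 and 3499 CPM in ribosomal-low tumours (log2 fold change 1.27 ± 0.13 (SE), adjusted p = 4.89e-08). Eif3h, a regulatory subunit of eIF3, had 715, 1026 and 1988 CPM in ribosomal-high tumours, against 328, 498 and 820.4 CPM in ribosomal-low tumours (log2 fold change 1.11 ± 0.11 (SE), adjusted p = 4.21e-08). Eef1b2, the nucleotide exchange factor of elongation factor 1, and Naca, a chaperone at the exit of the ribosome, had log2 fold changes of 1.25 and 1.13. All 4 were above the ribosomal-low median in 15 of 15 ribosomal-high libraries and stayed past the threshold with the offset, at 0.93, 0.77, 0.55 and 0.71. The 4 members that fell were Eif4b, Eef2, Hnrnpa1 and Pabpc1, named here after their values were seen, of which Eef2 and Pabpc1 are themselves well-known TOP mRNAs.

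Ribosome biogenesis genes did not move as a block with the ribosomal proteins. Of 30 genes 6 were higher and 14 lower, with a median of -0.17 (-0.052 with the offset). Among all genes 23.7% were higher and 28% lower. The higher ones were led by Nop10 (66.9, 101 and 213 CPM in ribosomal-high tumours, against 34.2, 53.4 and 77.0 CPM in ribosomal-low tumours; log2 fold change 1.01 ± 0.12 (SE), adjusted p = 3.00e-07) and Nhp2 (log2 fold change 1.00 ± 0.13), both small proteins of box H/ACA ribonucleoproteins, and by Taf1d (0.89 ± 0.12), a subunit of the selectivity factor of RNA polymerase I. Ddx21, described above, led the lower ones. Among 17 genes of Myc, mTORC1 and TOP mRNA control 4 were higher and 8 lower (median -0.16). Larp1, the repressor that binds TOP mRNAs, had 26.0, 63.3 and 78.7 CPM in ribosomal-high tumours, against 50.2, 92.9 and 147 CPM in ribosomal-low tumours (log2 fold change -0.71 ± 0.15 (SE), adjusted p = 4.07e-04), and was at -0.23 with the offset (adjusted p = 0.0541). Larp4, which protects poly(A) tails, was at -0.67 ± 0.11, and -0.14 with the offset. Rptor, the substrate adaptor of mTORC1, was at -0.45 ± 0.084 on the counts and at 0.052 with the offset, so its direction turned there.

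Small mitochondrial proteins encoded in the nucleus were higher nearly throughout. Over all genes the shares higher and lower were 23.7% and 28%, 17.8% and 15.1% with the offset, and 21% and 22.2% batch-matched. Of 78 mitochondrial ribosomal protein genes 71 were higher and 1, Mrps2, was lower, with a median of 0.71 (0.22 with the offset, 48 higher and 5 lower). Mrps33 had 63.1, 113 and 302 CPM in ribosomal-high tumours, against 29.8, 47.1 and 64.7 CPM in ribosomal-low tumours (log2 fold change 1.38 ± 0.13 (SE), adjusted p = 3.26e-08), and its lowest ribosomal-high value lay just under its highest ribosomal-low value. Mrpl18, Mrpl32 and Mrpl42 were at 0.88, 0.94 and 1.04. Of 75 nuclear-encoded respiratory chain genes 67 were higher and 2, Sdha and Ndufs1, were lower, both among the larger subunits of their complexes. Cox7c, a small subunit of cytochrome c oxidase, had 141, 225 and 669 CPM in ribosomal-high tumours, against 56.9, 100.3 and 177 CPM in ribosomal-low tumours (log2 fold change 1.42 ± 0.14 (SE), adjusted p = 4.54e-08). Uqcr10 of complex III, Ndufb8 of complex I and Atp5j2 of ATP synthase were at 1.28, 1.19 and 1.28. The median of the 75 was 0.89, against 0.22 with the offset (44 higher and 6 lower) and 0.72 relative to the all-gene median on the TPM scale. Batch-matched counts were 70 and 1 for the mitochondrial ribosome and 64 and 2 for the respiratory chain.

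The 13 protein-coding genes of mitochondrial DNA, whose products join the same complexes, did not show this. Only mt-Co3, a core subunit of cytochrome c oxidase, passed, with 3122, 7142 and 16392 CPM in ribosomal-high tumours, against 2325, 4690.1 and 8628 CPM in ribosomal-low tumours (log2 fold change 0.57 ± 0.20 (SE), adjusted p = 0.0186), and it was at -0.069 with the offset and at -0.15 on log2(TPM + 1). The median of the 13 was 0.13 on the counts and -0.38 with the offset (0 higher and 5 lower), so its direction depended on the fit. Relative to the all-gene median on the TPM scale it was -0.073. The 1 added to TPM shrinks the differences of low genes in that all-gene median, so -0.073 is not read as a change of direction. The median of the 13 also differed by group, at -1.07 in young anti-CTLA4 tumours, where batch and class cannot be told apart. It was between 0.27 and 0.99 in the other 5 groups. Batch-matched, the median was 0.58, and 8 of 13 were higher and 0 lower, beside 21% and 22.2% of all genes. With the length trend covariate over the 6 groups the median was 0.66.

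Multi-subunit machines had members on both sides, to be read beside the 23.7% of all genes that were higher and the 28% lower. Of 31 proteasome genes 20 were higher and 4 lower (median 0.43, and 0.0045 with the offset). Psma7 of the catalytic core had 397, 552 and 1241 CPM in ribosomal-high tumours, against 181, 284 and 473 CPM in ribosomal-low tumours (log2 fold change 1.14 ± 0.12 (SE), adjusted p = 6.69e-08), and Psma3, Psma5 and Psmb1, also of the core, were at 0.91, 0.87 and 0.92. The 4 lower members, named after their values were seen, were Psmd1, Psmd2, Psmd3 and Psmd11 of the regulatory particle. Other members of that particle were among the higher genes, namely Psmc3, Psmc6, Psmd4, Psmd6, Psmd8 and Psmd14, so the 2 parts did not divide by direction. Of 28 genes of small nuclear ribonucleoproteins 19 were higher and 7 lower (median 0.59, and 0.074 with the offset). Snrpg and Snrpe of the Sm ring were at 1.48 ± 0.15 and 1.23 ± 0.14, Sf3b6 at 1.09 ± 0.12, and Lsm1, a decapping activator of 2.39 kb, at 1.15 ± 0.11 and still 1.22 with the offset. The 7 lower ones were Sf3b1, Sf3b2, Sf3b3, Prpf8, Snrnp200, Snrnp70 and Snrpa, named after their values were seen.

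At the 2 ends of length, 8 of 11 replication-dependent histone genes that passed the filter (20 others did not) were higher and none lower (median 0.82, 0.095 with the offset, where none of the 11 passed), and of 39 genes of giant cytoskeletal and chromatin proteins none was higher and 16 were lower (median -0.43, 0.054 with the offset, where 5 were higher and none lower). Among all genes 63.1% of the shortest decile were higher and 68.8% of the longest decile lower. The giant genes, with a median effective length of 7.64 kb, were thus lower less often than genes of the longest decile. Hist1h2bc had 21.5, 27.4 and 50.1 CPM in ribosomal-high tumours, against 14.0, 19.6 and 28.8 CPM in ribosomal-low tumours (log2 fold change 0.60 ± 0.099 (SE), adjusted p = 2.16e-05), and was at -0.075 with the offset and at -0.087 on log2(TPM + 1). Hist1h4d was at 1.25 ± 0.21, at a low level with medians of 0.740 CPM in ribosomal-high tumours and 0.290 CPM in ribosomal-low tumours. Utrn, the muscle and epithelial relative of dystrophin, had 6.90, 22.5 and 38.0 CPM in ribosomal-high tumours, against 17.8, 32.9 and 66.9 CPM in ribosomal-low tumours (log2 fold change -0.69 ± 0.18 (SE), adjusted p = 0.00266). Mki67, a chromosome surface protein, Vps13b, a lipid transfer protein, and Nf1, a Ras inhibitor, were at -0.60 ± 0.17, -0.49 ± 0.14 and -0.47 ± 0.14 (SE) on the counts, and at -0.031, 0.15 and 0.072 with the offset, so that the direction turned for Vps13b and Nf1. Batch-matched, 4 of the 39 giant genes were lower, and the list's median was 0.30 in aged anti-PD-L1 tumours and negative in the other 5 groups. Of 15 nuclear-retained long non-coding RNAs 3 were higher and 1 lower, shares below the 23.7% and 28% of all genes. Batch-matched they were 5 and 1, beside 21% and 22.2% of all genes. Pvt1, transcribed beside Myc, had 19.1, 32.4 and 89.95 CPM in ribosomal-high tumours, against 9.44, 14.3 and 29.3 CPM in ribosomal-low tumours (log2 fold change 1.31 ± 0.15 (SE), adjusted p = 1.77e-07), and Tug1 was at -0.60 ± 0.14.

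Counts in the stress and growth lists are to be read against the 23.7% of all genes that were higher and the 28% that were lower, and several lie near those shares. Of 20 heat shock and unfolded protein response genes 5 were higher and 7 lower. Atf4, the transcription factor of the integrated stress response, had 175, 243 and 358 CPM in ribosomal-high tumours, against 117, 168 and 234 CPM in ribosomal-low tumours (log2 fold change 0.49 ± 0.091 (SE), adjusted p = 8.69e-05), though it was at -0.19 on log2(TPM + 1), where the all-gene median was -0.52. Sdf2l1 and Dnajb1 were at 0.75 ± 0.15 and 0.30 ± 0.067, the second at -0.37 on log2(TPM + 1), while Hsp90b1, a chaperone of the endoplasmic reticulum, was lower, at -0.54 ± 0.10. Of 20 hypoxia and glycolysis genes 2 were higher and 8 lower, with hexokinase Hk1 and phosphofructokinase Pfkp at -0.79 ± 0.11 and -0.58 ± 0.11, and batch-matched 2 were higher and 5 lower. Of 20 immediate early genes 2 were higher and 7 lower, with Klf4 and Egr2 at -0.69 ± 0.15 and -0.58 ± 0.14.

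Of 26 proliferation genes 5 were higher and 10 lower. Tyms, the thymidylate synthase, had 56.7, 77.0 and 129 CPM in ribosomal-high tumours, against 30.4, 45.1 and 80.6 CPM in ribosomal-low tumours (log2 fold change 0.73 ± 0.11 (SE), adjusted p = 1.07e-05), and the helicase subunits Mcm4 and Mcm6 and the ribonucleotide reductase subunit Rrm1 were at -0.57, -0.53 and -0.47. With the offset Tyms was at 0.19 (adjusted p = 0.104), Mcm4 at -0.29, Mcm6 at -0.34 and Rrm1 at -0.12, of which Mcm4 and Mcm6 passed. No member of the list was higher with the offset and 8 were lower.

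Markers of stromal cells were lower in ribosomal-high tumours. In bulk tissue, fewer cells of a type and less RNA per cell cannot be told apart. The counts below stand beside 23.7% of all genes higher and 28% lower. With the offset these shares were 17.8% and 15.1%, and batch-matched 21% and 22.2%. Of 20 fibroblast genes 16 were lower and none higher, with a median of -0.93 that was -0.61 with the offset (15 lower and none higher), -0.21 with the length trend covariate and -0.93 relative to the all-gene median on the TPM scale. Their summed level was 2004, 3734 and 7184 CPM in ribosomal-high tumours, against 4010, 6742 and 14677 CPM in ribosomal-low tumours, and none of the 20 was at 0 in every library. Postn, a matrix protein of activated fibroblasts, had 117, 209.6 and 396 CPM in ribosomal-high tumours, against 234, 341 and 597 CPM in ribosomal-low tumours (log2 fold change -0.82 ± 0.14 (SE), adjusted p = 4.25e-05). Col5a2 and Col6a2, fibrillar and microfibrillar collagen chains, were at -1.14 ± 0.20 and -1.06 ± 0.17, and Fbln1, a matrix glycoprotein, at -1.14 ± 0.20. The list's median was negative in 6 of 6 groups, from -1.35 in young anti-PD-L1 to -0.34 in aged anti-PD-L1 tumours, and 16 members were lower batch-matched.

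Endothelial genes went the same way, with 10 of 15 lower and 1, Egfl7, higher (median -0.58, -0.35 with the offset), beside 28% and 23.7% of all genes. Cdh5, the cadherin of endothelial junctions, had 7.43, 18.6 and 43.7 CPM in ribosomal-high tumours, against 19.8, 36.8 and 71.5 CPM in ribosomal-low tumours (log2 fold change -0.98 ± 0.17 (SE), adjusted p = 3.46e-05). The angiopoietin receptor Tek, its relative Tie1 and Plvap were at -1.23 ± 0.19, -0.58 ± 0.11 and -0.72 ± 0.14. The summed level of the 15 was 207, 395 and 535 CPM in ribosomal-high tumours, against 302, 515 and 828.5 CPM in ribosomal-low tumours.

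Adipocyte genes had 10 of 14 lower and none higher, beside 28% and 23.7% of all genes. Their median was -0.74 and stayed at -0.71 with the offset. Lpl, the lipoprotein lipase, had 13.1, 29.8 and 69.6 CPM in ribosomal-high tumours, against 13.4, 78.5 and 204 CPM in ribosomal-low tumours (log2 fold change -1.24 ± 0.29 (SE), adjusted p = 8.07e-04). The lipase Pnpla2, the acyl-CoA synthetase Acsl1 and the hormone leptin (Lep) were at -0.63 ± 0.12, -0.90 ± 0.14 and -1.10 ± 0.27. The list's median was negative in 5 of 6 groups and 0.50 in aged anti-PD-L1 tumours. Of 13 mammary secretory genes 5 were lower and none higher (median -0.87, and -1.12 with the offset, where 6 were lower). Lower genes were 28% of all genes, and 15.1% with the offset. The median was negative in 5 of 6 groups and 0.16 in young anti-CTLA4 tumours. Btn1a1, a milk fat globule protein, had 0.174, 0.740 and 4.01 CPM in ribosomal-high tumours, against 0.567, 2.80 and 7.32 CPM in ribosomal-low tumours (log2 fold change -1.58 ± 0.41 (SE), adjusted p = 0.00248), and Xdh, Mfge8 and the prolactin receptor Prlr were at -0.87 ± 0.19, -0.46 ± 0.12 and -1.22 ± 0.38. The summed levels overlapped widely, at 462, 887 and 2104 CPM in ribosomal-high and 286, 1334 and 2493 CPM in ribosomal-low tumours for adipocyte genes, and at 419, 712 and 1387 CPM in ribosomal-high and 585, 1100.4 and 1666 CPM in ribosomal-low tumours for mammary genes.

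The epithelial markers of the 4T1 cells themselves were expressed in all libraries, at a summed level of 2018, 3672 and 4429 CPM in ribosomal-high tumours and 1414, 3789 and 4918 CPM in ribosomal-low tumours. Of 19 genes 2 were higher and 4 lower, shares below the 23.7% and 28% of all genes, with a median of -0.043. Cdh1, the cadherin of epithelial junctions, had 31.8, 88.9 and 142 CPM in ribosomal-high tumours, against 72.5, 157 and 238 CPM in ribosomal-low tumours (log2 fold change -0.78 ± 0.16 (SE), adjusted p = 2.27e-04). Esrp1, an epithelial splicing factor, and Krt5, a basal keratin, were at -0.63 ± 0.14 and -1.45 ± 0.31, while Cldn7, a tight junction protein of a short mRNA, was at 0.80 ± 0.18 and at 0.20 with the offset (adjusted p = 0.295).

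Of 20 macrophage genes 3 were higher and 5 lower (median -0.026; 3 and 3 batch-matched), shares no larger than the 23.7% and 28% of all genes. The summed level was 10745, 15879 and 35281 CPM in ribosomal-high tumours, against 7579, 11633 and 21753 CPM in ribosomal-low tumours. Lyz2, lysozyme, made up much of that sum, with 3928, 7427 and 22004 CPM in ribosomal-high tumours, against 2226, 3247 and 9258 CPM in ribosomal-low tumours (log2 fold change 1.02 ± 0.17 (SE), adjusted p = 3.23e-05). Macrophage sums overlapped between classes, as did those of Lyz2. Cd163, a haemoglobin scavenger receptor of resident macrophages, had 7.51, 27.4 and 44.9 CPM in ribosomal-high tumours, against 11.9, 66.4 and 245 CPM in ribosomal-low tumours (log2 fold change -1.60 ± 0.23 (SE), adjusted p = 3.32e-06), and was below the ribosomal-low median in all 15 ribosomal-high libraries. The growth factor receptor Csf1r was at -0.67 ± 0.10, and Trem2 at 0.61 ± 0.14, though -0.070 on log2(TPM + 1). With the offset Lyz2, Cd163 and Csf1r passed at 0.67, -1.28 and -0.34, and Trem2 was at 0.27 (adjusted p = 0.0604).

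Lymphocyte genes varied widely between tumours. None of 16 B cell and none of 15 T cell genes passed in edgeR, and 0 B cell genes and 1 T cell gene, Cd3d, had an unadjusted p under 0.05. Ighm, the heavy chain of IgM, had 25.6, 129 and 1506 CPM in ribosomal-high tumours, against 16.0, 429 and 3494 CPM in ribosomal-low tumours (log2 fold change -1.21 ± 0.79 (SE), adjusted p = 0.203). Cd3d, a chain of the T cell receptor complex, had 6.45, 31.3 and 426 CPM in ribosomal-high tumours, against 1.89, 15.1 and 126 CPM in ribosomal-low tumours (log2 fold change 1.21 ± 0.53 (SE), adjusted p = 0.0563), and passed in DESeq2 and in 9 of 30 fits that each left out 1 library. Medians were -0.82 for the B cell list, -0.10 batch-matched, and -0.090 for the T cell list. The B cell sum ran from 48.7 to 3250 CPM in ribosomal-high and from 27.97 to 4192 CPM in ribosomal-low tumours, and the T cell sum from 60.4 to 1616 CPM in ribosomal-high and from 26.9 to 1454 CPM in ribosomal-low tumours. Of 9 natural killer cell genes 3 were higher, led by the chemokine Xcl1 (1.03 ± 0.21, 0.18 with the offset), and none was lower, beside 23.7% and 28% of all genes. Batch-matched, 1 was higher.

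Globin mRNAs were higher on the counts. Of 6 erythroid genes 4 globins were higher and 1, the spectrin gene Sptb, lower, and batch-matched 2 were higher and none lower. The beta-globin gene Hbb-bs had 116, 392.2 and 1139.7 CPM in ribosomal-high tumours, against 27.6, 161 and 538 CPM in ribosomal-low tumours (log2 fold change 1.13 ± 0.25 (SE), adjusted p = 5.92e-04), and Hbb-bt was at 1.14 ± 0.27, but with the offset they were at 0.44 and 0.44 and did not pass, and the list's median turned to -0.13. Hbb-bs and Hbb-bt are near-identical copies whose reads cannot be divided with certainty. Of 19 neutrophil genes 2 were higher and 2 lower, shares below the 23.7% and 28% of all genes. Batch-matched they were 5 and 1, beside 21% and 22.2% of all genes. S100a9, an abundant granulocyte protein of a short mRNA, was at 1.21 ± 0.41, and Ltf, lactoferrin of granules and of milk, at -1.58 ± 0.42. The list's median of 0.35 turned to -0.17 with the offset and to -0.14 with the 3 low-TMM libraries left out, where S100a9 was at 0.75 and did not pass. S100a9 also missed the threshold without young anti-CTLA4 replicate 8, at 0.91. Of 9 skeletal muscle genes 2 were higher and 1 lower, also shares below those of all genes, with a median of -0.042 that was 0.31 batch-matched. Their sum was 35.8, 52.8 and 90.9 CPM in ribosomal-high tumours, against 18.2, 34.3 and 97.8 CPM in ribosomal-low tumours.

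Of 18 interferon-gamma-induced genes 2 were higher and 4 lower (1 and 0 batch-matched), and of 18 type I interferon-induced genes 2 and 2 (3 and 1), below the shares of 23.7% and 28% among all genes. Isg15, a ubiquitin-like protein, had 59.0, 103 and 249 CPM in ribosomal-high tumours, against 23.3, 71.7 and 181 CPM in ribosomal-low tumours (log2 fold change 0.91 ± 0.21 (SE), adjusted p = 6.64e-04), and the RNA sensor Ddx58 was at -0.70 ± 0.16. Psmb8, a subunit of the immunoproteasome, was at 0.48 ± 0.14 on the counts, 0.029 with the offset and -0.22 on log2(TPM + 1). The list medians were -0.23 and -0.15, and the type I median was 0.11 batch-matched.

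**Figure D5:**
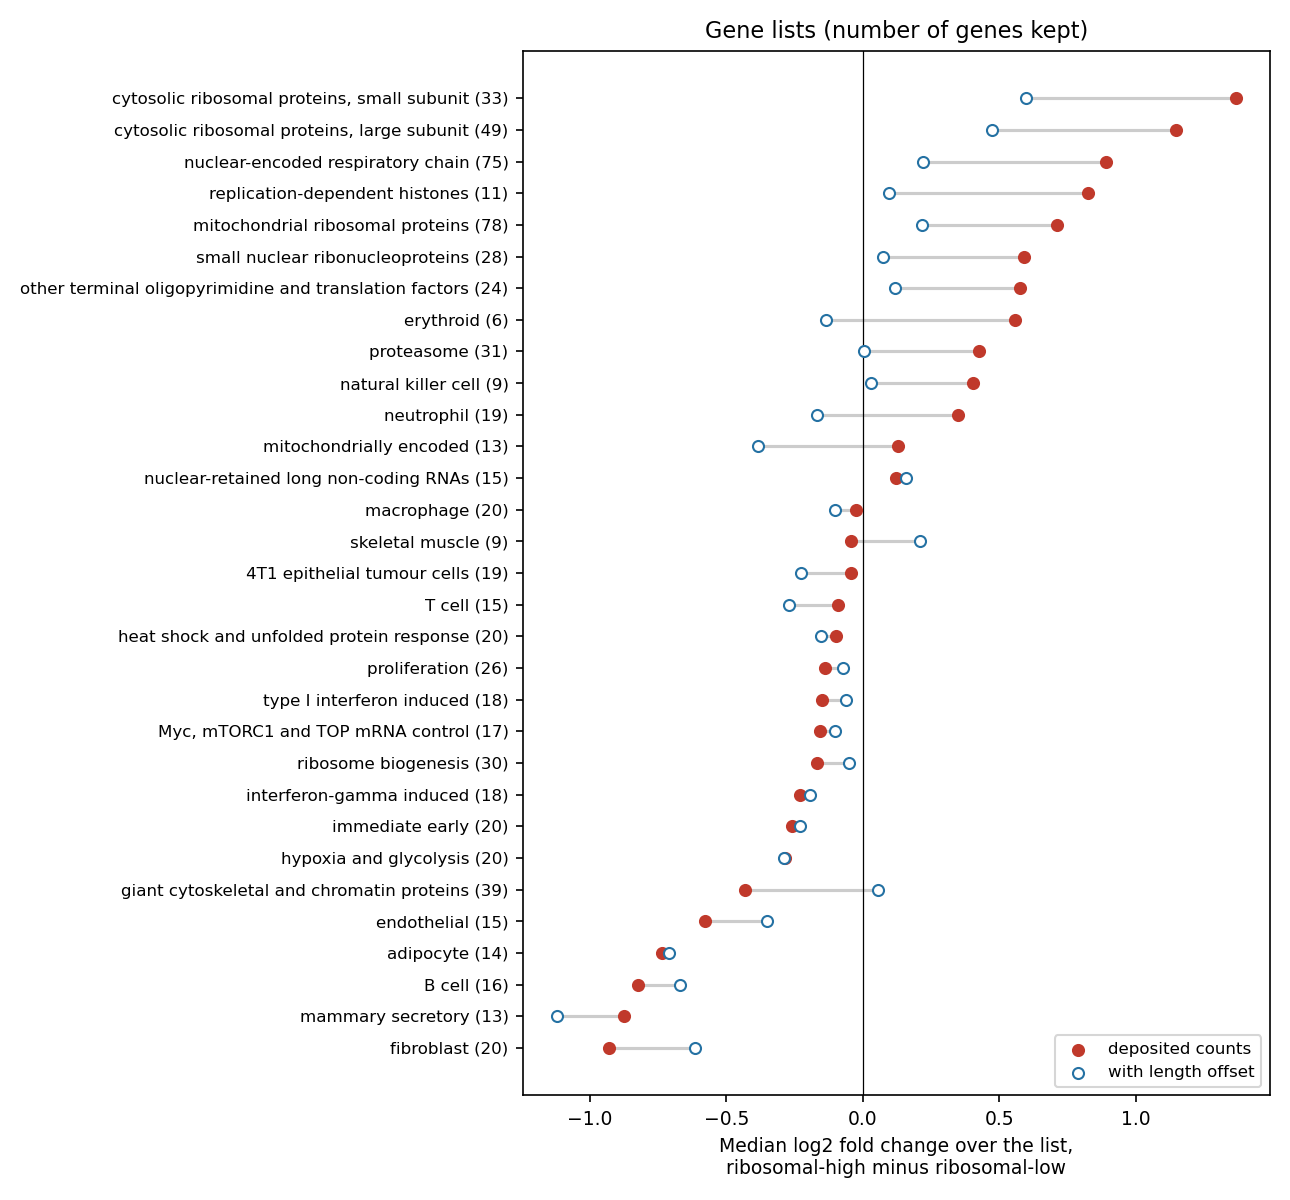
Median log2 fold change of ribosomal-high minus ribosomal-low tumours over each gene list, with the number of genes kept in brackets, from the deposited counts (filled) and with the length offset (open). The ribosomal protein lists stay at 0.60 and 0.47 with the offset, fibroblast, adipocyte and mammary lists stay at -0.61, -0.71 and -1.12, and the histone, proteasome and giant protein lists move to within 0.10 of 0.

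The 22 middle libraries, which entered neither class, gave a separate view of the same score. A slope per unit of score, with group as a block, was positive for 79 of the 82 ribosomal protein genes (median 0.82), as the score's own composition favours. Among the 15692 other genes 4 passed in edgeR, 3 with a positive and 1 with a negative slope (0.0255% of all, 0.0191% and 0.00637%), and 2233 had an unadjusted p under 0.05. They were, named after their values were seen, Gm5045, 1110002L01Rik and Hotairm1 with slopes of 2.04 ± 0.35, 2.72 ± 0.43 and 2.52 ± 0.40, and Sh3kbp1, an adaptor of receptor endocytosis, with -1.76 ± 0.28 (SE). Of the 22 fits that each left out 1 library, 12 called no gene, while the one without young anti-PD-L1 replicate 6 called 10 with a positive and 6 with a negative slope. A batch term left 0 calls (1192 with an unadjusted p under 0.05).

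Of the 3712 genes higher in ribosomal-high tumours 84.3% had a positive slope in the middle libraries, of the 4388 lower genes 82.8% had a negative one, and of the 7592 genes not called 59.3% had the same sign in both. By decile of effective length the median slope ran from 0.43 in the shortest to -0.40 in the longest genes. Of the 10 higher genes named, C1d, Elof1 and Coq2 had slopes of 1.29, 1.23 and 0.96, and of the 10 lower ones Lars, Vcp and Ddx21 had -0.88, -1.02 and -1.04. Fibroblast genes had a median slope of -0.84, with 1 of 20 positive, beside a class difference of -0.93. Other lists did not follow their class difference: the median slope was -0.043 for adipocyte genes (class difference -0.74), -0.79 for natural killer cell genes (0.40), -0.48 for mitochondrially encoded genes (0.13), 0.078 for hypoxia and glycolysis genes (-0.29) and -0.081 for erythroid genes (0.56). B cell genes had the lowest median slope of the lists, -6.51, with 0 of 16 positive, and none of the 16 passed. A unit of score is wider than the middle scores of any group, which spanned 10.49 to 10.57 in aged isotype tumours. The list's median class difference ran from -4.97 in aged anti-CTLA4 to 2.24 in young anti-PD-L1 tumours.

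A test of the difference between the class effect in aged tumours (6 against 6) and in young tumours (9 against 9) called 0 of 15692 genes in edgeR (0% of all), while 1427 had an unadjusted p under 0.05. The genes of smallest p were Xpo1, the main nuclear export receptor, where the log2 fold change was -0.057 in aged and -0.90 in young tumours (difference 0.87 ± 0.19, SE, adjusted p = 0.46), and Cyth1, an exchange factor of Arf proteins, where it was -0.42 in aged and 1.57 in young tumours (difference -1.96 ± 0.38, adjusted p = 0.38). Fitted alone, aged tumours gave 2304 higher and 1958 lower genes and young tumours 3091 and 2933, and the numbers of libraries differ.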

How the data were processed

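Poly(A) RNA of 52 tumours was sequenced from stranded mRNA libraries as 75-base read pairs, per the labels' protocols. Tables of estimated counts and of TPM per gene were deposited by the authors, made with Salmon on mm10, per the submitters' processing notes, which also name DESeq2 1.16.1; the Salmon version, the annotation and the summing to genes are not known here. Reads of near-identical copies (ribosomal protein genes, globins, histones, Naca, Eef1b2, Rack1) and of overlapping genes are therefore uncertain. Gene symbols came from the reference annotation for 47224 of 47729 IDs. The counts were TPM times a gene length common to all libraries (largest log2 deviation 0.0014 over 2644 genes), and that length, anchored on 1996 single-transcript coding genes, is the effective length.

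Counts were rounded and 15889 genes kept that passed edgeR's expression filter in either class; counts of list members are over genes kept. The 82 ribosomal protein genes and 115 copies were described and 15692 genes tested with edgeR 4.0.16 (TMM, quasi-likelihood, group and class terms, Benjamini-Hochberg threshold 0.05) in R 4.3.3. A second fit used the score's slope in the 22 middle libraries and another the interaction of class with age. Alternatives used limma 3.58.1, DESeq2 1.42.0, offsets, covariates and subsets. CPM values are scaled by TMM. Library measures were compared by exact permutation within groups. Totals of 9549847 or more counts a library limit the precision of low genes, and SEs include the spread between libraries. On simulated counts over 15889 genes, the class test was checked with planted changes. Named genes were the 10 higher and 10 lower genes of smallest p, the 5 higher of the longest and 5 lower of the shortest quartile of length, up to 4 genes of each list, the scored genes and the ribosomal protein genes at either end; 1 gene this rule names is not reported here. The classes, the members and the lists were chosen with earlier results of these data known. Replicate numbers did not pair libraries.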

Additional observations from a re-analysis of the deposited data

How the results depend on the processing

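With relative log expression factors, DESeq2, no filter, a batch term, smaller classes of n divided by 4, other scores, any group left out or the low-TMM libraries left out, counts of higher and lower genes stayed within 1.5 times 3712 and 4388. Leaving out 1 library gave 3437 to 3898 and 3899 to 4646. A replicate block, by numbers shared between groups, left 2843 and 2477; same-numbered libraries did not deviate together (median r -0.0143 over 41 pairs). Counts were 0 and 0 in batch 1 alone, 1595 and 878 in batch 2, 0 and 3 in batch 3, 2792 and 2370 with the length offset, 91 and 30 with the length trend covariate, and 797 and 11476 on log2(TPM + 1). The smaller batches hold fewer libraries; beyond that the cause was not tested. In the middle libraries a batch term left 0 and 0, and leaving out 1 library gave 0 to 10 and 0 to 6. The age test called 0 in the alternatives run, relative log expression (1439 genes with an unadjusted p under 0.05) and no filter (2375).

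Inside batches 1 and 3 the arrangements are too few for any difference of library measures to pass. Differences that passed over all libraries and not inside batches 1, 2 and 3 were histone percent (0.0012263, 0.00033282 and 0.0015926) and total count (-5880800, -2308500 and -110680). The length trend also passed over all libraries, and inside batches 1 and 3 it differed by -0.17049 and -0.17485 and did not pass. Described with no p-value, genes detected differed by -510.75, -1061.8 and -1490.5 inside batches 1, 2 and 3. Inside batches 1 and 3 the TMM factor differed by -0.13412 and -0.24325 and the top-10 percent by 1.66 and 2.9381. The mitochondrial percent turned to 0.984, 0.83691 and 0.71888, and to 0.041568 without low-TMM libraries. Library measures were not recomputed with 1 library left out.

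On log2(TPM + 1), where the all-gene median was -0.52, log2 fold changes turned for Atf4 (-0.19), Dnajb1 (-0.37), Emc7 (-0.075), Hist1h2bc (-0.087), Psmb8 (-0.22), Trem2 (-0.070) and mt-Co3 (-0.15). With the length offset they turned for Hist1h2bc (-0.075), Nf1 (0.072), Rptor (0.052), Vps13b (0.15) and mt-Co3 (-0.069). With the covariate they turned for Cd3d (-0.36), Cyth1 (-0.27), Ddx58 (0.092), Larp1 (0.11), Mki67 (0.20), Nf1 (0.18), Tug1 (0.15), Utrn (0.42) and Vps13b (0.22). Inside batches the ones that turned were Cyth1 in batch 1 (-0.29) and Ighm in batch 2 (0.77). In batch 3 they were Cd3d (-0.40), Cyth1 (-0.76) and Xpo1 (0.081).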

Other observations

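Immunoglobulin variable segments are short, with a median effective length of 0.230 kb. Of 81 kept segments 77 had a negative log2 fold change of ribosomal-high minus ribosomal-low tumours, with a median of -1.29, and none passed in edgeR (0 with an unadjusted p under 0.05). Their summed level was 14.2, 76.8 and 10860 CPM (lowest, median and highest) in ribosomal-high tumours, against 7.05, 349 and 5116 CPM in ribosomal-low tumours, and the classes overlapped. No test against other short genes was run. In the 22 middle libraries the sum was 1.156, 85.7 and 4510 CPM. The median slope was -5.97 per unit of score, a unit wider than the middle scores of any group.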
